A study of Danio rerio with 7 samples.

Results

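Genes for mitochondrial protein import, carriers of the SLC25 family and cofactor assembly were compared between growing and stationary PAC2 cells. Members were taken by gene name: translocase genes (names starting timm and tomm), carriers (slc25), CHCH-domain genes (chchd), coenzyme Q genes (coq), assembly factors of respiratory complexes (ndufaf, sdhaf and the later cox genes), hspd1, hspe1, prohibitins, genes of cristae and fusion, and tfam, polrmt and twnk. The name table matched 126 of the 17570 genes in the count matrix, and in all it holds 143 identifiers with such a name. For 125 members the geometric mean passed 1 CPM (counts relative to the scaled library size) in at least 1 growth phase, and the exception was *timm23b*. *tomm34* has a name that fits the rule, but it encodes a co-chaperone of the cytosol, and it is given apart from the functional groups.

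PAC2 is a permanent line derived from zebrafish embryos, here of wild-type genotype and without any treatment. Messenger RNA was sequenced from 4 libraries of day 8 after seeding (exponential phase) and 3 libraries of day 14 (stationary phase), since replicate 3 of day 14 was lost during library preparation. Each replicate was a passage with its own starting day, and both time points of a replicate came from that passage. The culture medium was renewed a week after seeding, so that its age cannot be told apart from the growth phase.

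Most mitochondrial proteins are made in the cytosol and enter through the TOM complex of the outer membrane. From there the TIM23 complex takes them to the matrix, the TIM22 complex inserts carriers into the inner membrane with the help of small TIM chaperones, and CHCHD4 traps small cysteine-rich proteins in the intermembrane space by oxidizing them. Most carriers of the SLC25 family exchange nucleotides, phosphate, cofactors, organic acids or amino acids across the inner membrane. Assembly factors add heme, copper, flavin and subunits to the respiratory complexes.

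Library totals ranged from 11252559 estimated counts in replicate 1 of day 8 to 33414743 in replicate 1 of day 14, so that genes with few counts are least precise in the former. The 7 genes fixed as a check of proliferation, among them *mki67* and *PCNA*, were called lower on day 14 in 7 of 7 cases. Of 12 identifiers for fibroblast and mesenchyme markers, 7 were called higher (58.3%) and 1 lower (8.33%), against 12.0% and 13.3% of all genes. Their summed level was 3680 to 6175 CPM on day 8 and 6441 to 8035 CPM on day 14. Most of that sum came from the collagen genes *COL1A2*, which was called higher, and *col1a1a*, which was not called (edgeR adjusted p = 0.230). The marker called lower was an *FN1* identifier (ENSDARG00000019815), at 157 to 312 CPM on day 8 and 93.8 to 158 CPM on day 14 (-0.89, edgeR adjusted p = 0.0164). The other *FN1* identifier was called higher. *COL1A2* was between 1258 and 3515 CPM in the 7 libraries, whereas the *VIM* identifier of the matrix stayed below 1 CPM. *VIM* was nevertheless among the 7 called higher (1.48, edgeR adjusted p = 0.0332). The 3 identifiers of epithelial markers summed to 320.4 to 382 CPM on day 8 and 230.3 to 257 CPM on day 14, nearly all of it from the keratin gene *krt4*, which was called lower. The markers of muscle summed to at most 20.5 CPM, those of endothelium to at most 8.05 CPM, and *SPI1* of blood cells did not exceed 1.11 CPM. Of the endothelial markers *kdrl* was called lower (-1.47, edgeR adjusted p = 0.0367). *GFAP* of glia was at 0.11 to 0.76 CPM on day 8 and 0.96 to 1.54 CPM on day 14 (1.46, adjusted p = 0.0578), and was called with the replicate block. Of the names listed for epithelium 3 of 5 were found in the matrix, for muscle 2 of 4 and for endothelium 2 of 3. For blood, and for neurons and glia, it was 1 of 4 each. The part of these marker levels in the results was not tested. In bulk RNA, fewer cells of a type and less RNA per cell cannot be told apart.

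Members were mostly lower in the stationary phase, with 99 negative and 27 positive differences, against 8750 negative and 8820 positive among all genes. With edgeR's quasi-likelihood test and a Benjamini-Hochberg adjusted p below 0.05 over all genes ("called"), 42 of the 126 members were lower on day 14 and 3 were higher. Among all genes of the matrix, 13.3% were called lower, 12.0% higher and 25.3% in either direction. The members' median log2 difference between day 14 and day 8 was -0.46, and that of all genes was 0.00. In 49 members every day 14 library was below every day 8 library, and in 6 every day 14 library was above, whereas 17.7% and 17.1% of all genes showed these patterns. Of the 42 members called lower, 41 were without overlap, the exception being *tomm6*. All 42 were lower in all 3 pairs of libraries that share a replicate number. The 42 were chosen with these same libraries, so neither count adds support to the calls. In 14 of the 42 the difference exceeded 1 on the log2 scale. Among all 126 members 74 were lower and 18 higher in all 3 pairs, against 5556 and 5540 of the 17570 genes. The count of lower calls depended on single libraries, and omitting replicate 4 of day 14 left 24, omitting replicate 1 of day 14 left 26, and omitting replicate 1 of day 8 gave 63. The share of all genes called lower in these fits was 7.75%, 10.996% and 14.5%. Fewer libraries give less power, so a call lost in such a fit need not mean a changed difference. With the replicate as a block, 58 members were called lower and 8 higher, against 18.9% and 17.7% of all genes in that fit, and the calls of the unblocked fit were all among them. Replicate 3 has no day 14 library, so the block's difference between days rests on the 3 pairs. The fits with the block and without replicate 3 of day 8 are therefore not independent. In 22 of the 42 the call was also made in each of 14 alternative fits. Without scaling factors, 18.5% of all genes were called lower and the median of all genes was -0.17. Lower calls gained in that fit include this shift.

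**Figure D1:**
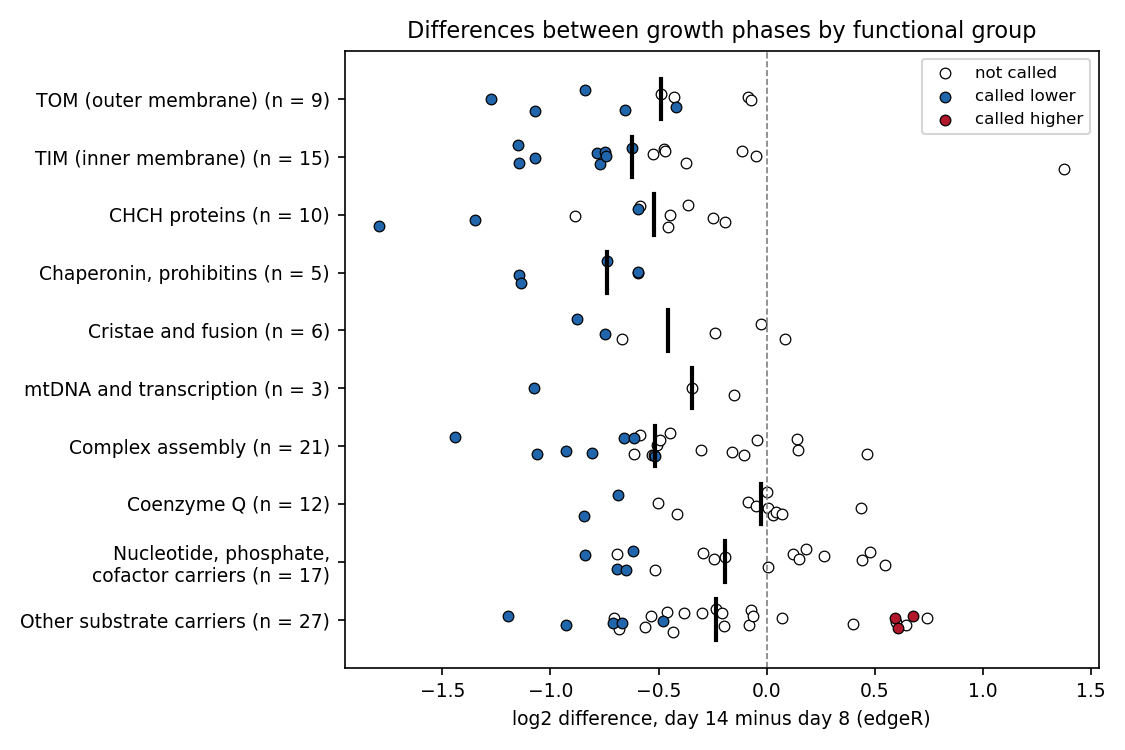
Log2 difference between day 14 and day 8 (horizontal axis, edgeR) of the 125 members in 10 functional groups (rows). Each circle is a gene, filled where called lower (blue) or higher (red), and the vertical bar is the median of the group, from -0.74 for the chaperonin and prohibitins to -0.02 for coenzyme Q.

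The groups differed in the size of their medians. The median log2 difference was -0.74 in the 5 chaperonin and prohibitin genes, -0.62 in the 15 TIM genes, -0.52 in the 10 CHCH genes and in the 21 assembly factors, and -0.49 in the 9 TOM genes. It was -0.45 for the 6 genes of cristae and fusion and -0.35 for the 3 of mitochondrial DNA. Carriers were nearer to 0, with -0.22 over 44 genes, and the 12 coenzyme Q genes had a median of -0.02. The median of the assembly factors was -0.31 with the replicate block, where that of the TOM genes was -0.43, and -0.33 without replicate 3 of day 8. Without that library the median of the mitochondrial DNA genes was -0.22. The sign of the coenzyme Q median was not stable. It was 0.06 with the block and 0.06 without replicate 3 of day 8, fits that are not independent. It was 0.03 without replicate 1 of day 14 and -0.18 without scaling factors. With copies summed it was 0.01, but that fit also joined distinct genes such as *COQ8A* and *COQ8B*. These medians are descriptions, and the differences between groups were not tested.

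Day 8 libraries were not alike for these genes. Replicate 1 was the lowest of the 4 day 8 libraries for 81 members (64.3%) and replicate 3 the highest for 80 (63.5%), whereas over all genes replicate 1 was lowest for 32.7% and replicate 3 highest for 31.8%. Relative to the day 8 mean, the mean of log2(CPM + 1) over the members was -0.23, -0.07, 0.20 and 0.09 in replicates 1 to 4 of day 8, and -0.40, -0.33 and -0.32 in replicates 1, 2 and 4 of day 14. Over all members, replicate 1 of day 8 was thus between the other day 8 libraries and those of day 14, and it was also the shallowest library. For the assembly factors its mean of -0.34 lay within the day 14 range of -0.51 to -0.32. For coenzyme Q genes and both carrier groups it lay within the day 14 range too. For cristae and fusion genes the day 8 libraries lay within -0.05 and 0.06, and those of day 14 between -0.49 and -0.30. The part of these library differences in the calls was not tested beyond leaving out each library.

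**Figure D2:**
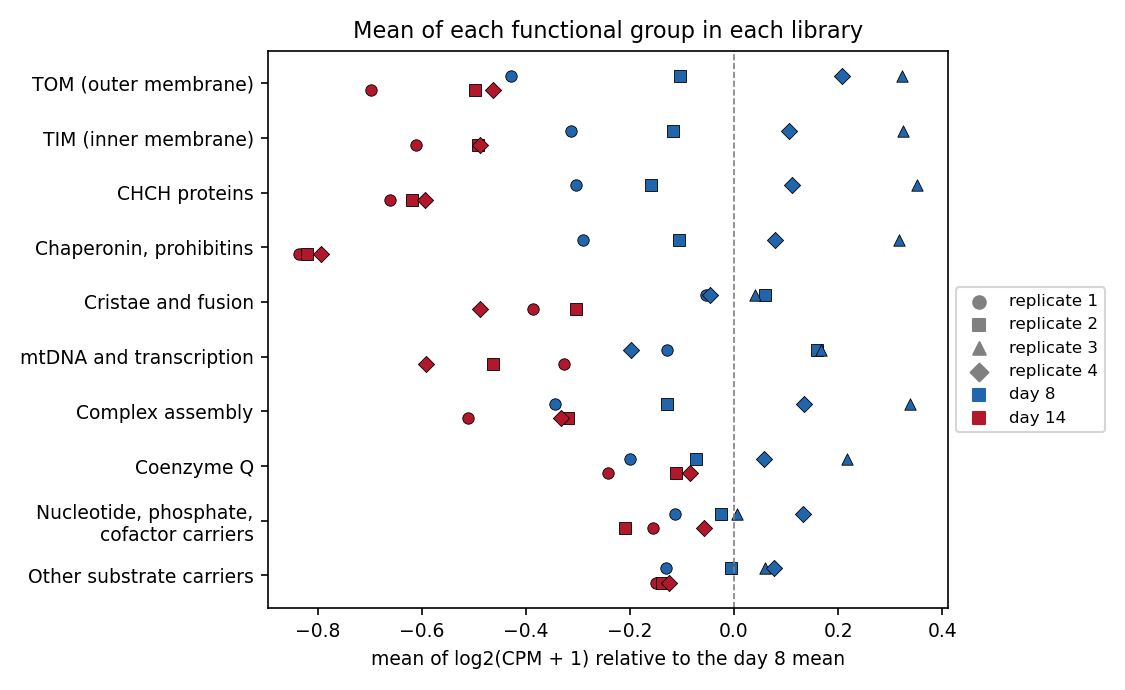
Mean of log2(CPM + 1) over the genes of each functional group (rows) in each library, relative to the mean of the 4 day 8 libraries (horizontal axis). Colours give the day and shapes the replicate. Replicate 1 of day 8 is the lowest day 8 library in every group except mitochondrial DNA. It lies within the day 14 range in the assembly, coenzyme Q and both carrier groups. The coenzyme Q and carrier groups show the smallest gaps between days.

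The 10 CHCH genes encode small proteins with a pair of disulfide-linked helices, most of them in the intermembrane space. All 10 had negative differences, and 3 were called lower. CHCHD10 (ENSDARG00000010717), a protein of the cristae region whose human gene is mutated in forms of motor neuron disease and dementia, had the largest difference of all members. *CHCHD10* was at 42.1, 57.9, 105 and 87.4 CPM in replicates 1 to 4 of day 8 and at 21.7, 18.8 and 22.7 CPM in replicates 1, 2 and 4 of day 14. The spread was wide on day 8 and narrow on day 14, and the lowest day 8 library was above every day 14 library. The means were 73.1 ± 28.3 CPM (SD, n = 4) and 21.1 ± 2.0 CPM (SD, n = 3). Its log2 difference was -1.79 (SE 0.28, edgeR adjusted p = 9.57e-04), and it was lower in 3 of 3 replicate pairs, with log2 ratios of -0.92, -1.57 and -1.90 between libraries.

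*CHCHD4*, the oxidoreductase of the disulfide relay, was at 24.9, 31.6, 51.6 and 32.2 CPM on day 8 and at 14.8, 13.8 and 12.6 CPM on day 14. These groups did not overlap, and the log2 difference was -1.35 (SE 0.23, edgeR adjusted p = 0.00138). *chchd1*, a protein of the mitochondrial ribosome, was lower by a log2 difference of -0.60 (SE 0.20, adjusted p = 0.0466). That call was lost without replicate 3 or 4 of day 8 or any library of day 14, with an adjusted p from 0.0745 to 0.154, without robust estimation (0.0506) and with copies summed (0.0505). *CHCHD2*, the paralog of *CHCHD10*, was at 84.8, 102, 142 and 129 CPM on day 8 and 78.8, 93.5 and 79.5 CPM on day 14. Its groups overlapped, and the log2 difference of -0.45 (SE 0.19) did not pass the edgeR test (adjusted p = 0.0983). *CHCHD2* was called lower without scaling factors (-0.61, adjusted p = 0.0157) and without replicate 1 of day 8 (-0.57, adjusted p = 0.0235). The difference between the paralogs was not tested. With the replicate block, *chchd4b* (adjusted p = 0.0446), *CHCHD7* (0.0358) and *chchd6a* (0.0419) were also called lower in edgeR. This makes 6 of 10, in a fit that called 18.9% of all genes lower.

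**Figure D3:**
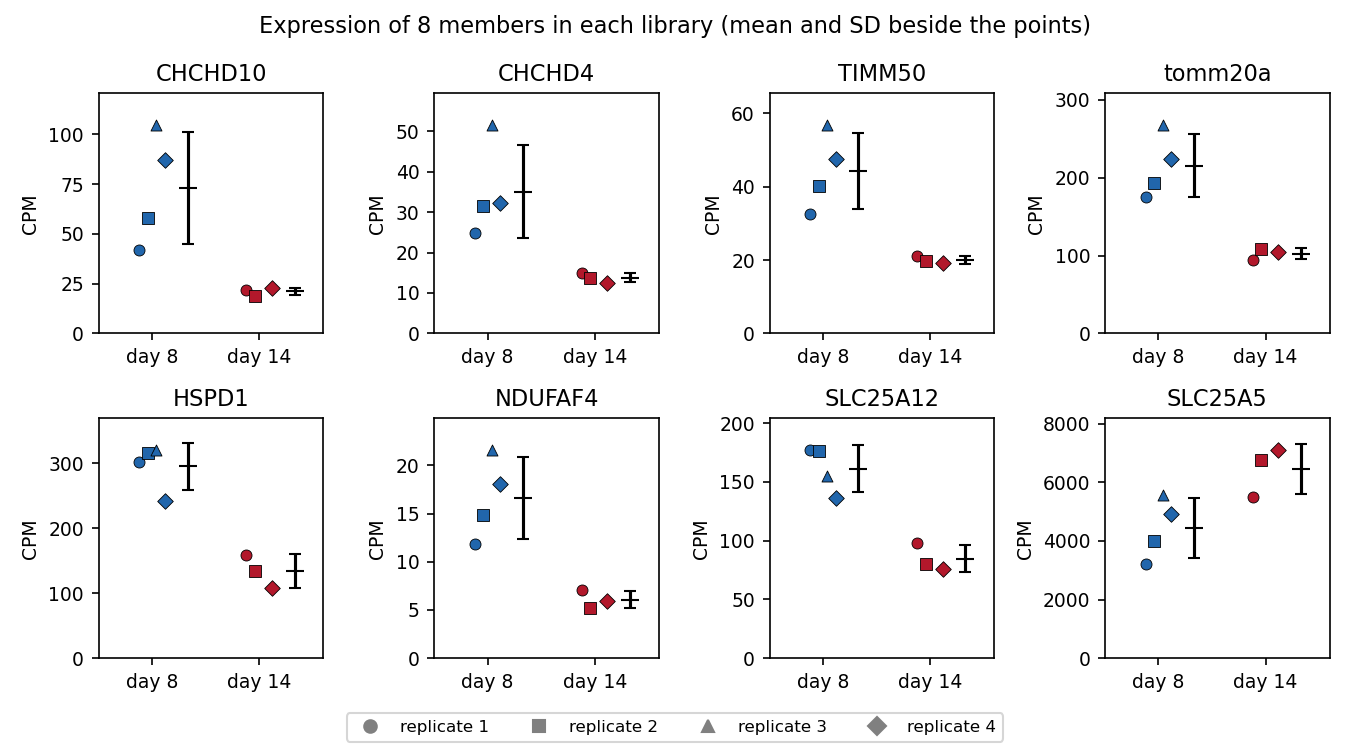
CPM (vertical axes, from 0) of 8 members in the 4 day 8 libraries (blue) and 3 day 14 libraries (red), with the mean and SD beside the points and shapes for the replicate. 7 members lie lower on day 14 without overlap, and *SLC25A5* is higher on day 14 in each replicate pair while replicate 1 of day 14 lies within the day 8 range.

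Of the 9 TOM genes, 5 were called lower (55.6%, against 13.3% of all genes), and all 9 differences were negative. *tomm40l*, a relative of the channel gene, was at 41.5, 54.1, 69.2 and 66.8 CPM on day 8 and at 22.7, 23.9 and 25.3 CPM on day 14. *tomm20a*, a receptor for presequences, was at 176, 193, 268 and 224 CPM on day 8 and at 94.3, 108 and 105 CPM on day 14. Both genes separated the days without overlap, with log2 differences of -1.27 (SE 0.19, edgeR adjusted p = 6.64e-04) and -1.07 (SE 0.17, adjusted p = 0.00105). *TOMM40*, the channel of the outer membrane, was at 42.6, 52.6, 55.0 and 48.9 CPM on day 8 and at 34.5, 31.5 and 28.7 CPM on day 14, a log2 difference of -0.66 (SE 0.15, adjusted p = 0.00778).

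The small subunit *tomm6* had a larger difference than *TOMM40* but was less certain. Its values were 30.4, 42.4, 74.5 and 67.3 CPM on day 8 and 26.2, 31.4 and 32.5 CPM on day 14, so that replicate 1 of day 8 fell within the day 14 range. The log2 difference was -0.84 (SE 0.27, edgeR adjusted p = 0.0400), and the call was lost without replicate 3 or 4 of day 8 or any day 14 library (adjusted p from 0.0814 to 0.129). *TOMM70*, the receptor used by carriers, was at 71.1 to 74.4 CPM in the day 8 libraries and at 50.1, 54.1 and 59.0 CPM on day 14. Its log2 difference of -0.42 (SE 0.14, adjusted p = 0.0391) was no longer called without replicate 2 or 4 of day 8 or any day 14 library (0.0641 to 0.138). *TOMM20* (log2 difference -0.09) and *TOMM5* (-0.07) were not called, and in both the day 14 libraries lay within the day 8 range. The central receptor *TOMM22* (-0.43, adjusted p = 0.160) was called with the replicate block (adjusted p = 0.0457), and *tomm7* (-0.49, adjusted p = 0.133) was not. Both were called lower without scaling factors (edgeR adjusted p = 0.037 and 0.038) and without replicate 1 of day 8 (0.025 and 0.033).

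Of the 15 TIM genes, 8 were called lower (53.3%, against 13.3% of all genes), and 14 differences were negative. The 6 small TIM chaperones of the intermembrane space had a median log2 difference of -0.76, and 4 of them were called. *TIMM10* was at 59.9, 73.1, 88.1 and 63.0 CPM on day 8 and at 36.99, 34.2 and 24.7 CPM on day 14. *timm10b*, a chaperone docked at the TIM22 complex, was at 22.2, 20.0, 26.5 and 21.1 CPM on day 8 and at 10.9, 12.9 and 8.25 CPM on day 14. Neither overlapped between days, with log2 differences of -1.15 (SE 0.19, edgeR adjusted p = 0.00122) and -1.07 (SE 0.19, adjusted p = 0.00171). *TIMM13* differed by -0.74 (SE 0.16, adjusted p = 0.00519), and its day 14 libraries were within 35.5 and 36.2 CPM. *TIMM8B* differed by -0.78 (SE 0.22, adjusted p = 0.0192), and this call was lost without replicate 1 (0.0593), 2 (0.0666) or 4 (0.0674) of day 14. *TIMM8A* and *TIMM9* had negative differences of -0.37 and -0.53 that did not pass. *TIMM9* was called lower without scaling factors (edgeR adjusted p = 0.0246) and without replicate 1 of day 8 (0.0230).

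In the TIM23 complex the receptor *TIMM50* was at 32.4, 40.2, 56.9 and 47.6 CPM on day 8 and at 21.0, 19.8 and 19.2 CPM on day 14. Every day 8 library was higher, and the log2 difference was -1.15 (SE 0.19, edgeR adjusted p = 0.00129). *TIMM44*, which holds the import motor at the channel, showed little spread within either day, with 41.4 to 45.2 CPM on day 8 and 25.8, 26.7 and 22.7 CPM on day 14. It differed by -0.77 (SE 0.14, adjusted p = 0.00222). The channel gene *TIMM17A* was lower by a log2 difference of -0.62 (SE 0.17, adjusted p = 0.0175), a call that was lost without replicate 1 (0.0678) or 4 (0.0679) of day 14. Its relative *TIMM17B*, at 2.78 to 5.44 CPM over all libraries, differed by -0.11 and was not called. *TIMM22*, the channel for carriers, differed by -0.75 (SE 0.23, adjusted p = 0.0298) and was not called without replicate 3 or 4 of day 8 or any day 14 library (0.0545 to 0.0943). *timm23a* and *TIMM29* (-0.47 each) were not called, but were lower with the replicate block (edgeR adjusted p = 0.0314 and 0.0480), and passed also with DESeq2 (0.0437 and 0.0483), without scaling factors (0.0108 and 0.0153) and without replicate 1 of day 8 (0.0200 and 0.0369).

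The matrix chaperonin folds imported proteins, and the prohibitins form ring complexes in the inner membrane. Of these 5 genes 4 were called lower (80.0%, against 13.3% of all genes). *HSPD1*, the large chaperonin subunit, was at 302, 316, 321 and 241 CPM on day 8 and at 159, 135 and 108 CPM on day 14, a log2 difference of -1.14 (SE 0.18, edgeR adjusted p = 9.07e-04). *HSPE1*, its co-chaperonin, was at 100.3, 111, 200 and 164 CPM on day 8 and at 75.6, 89.6 and 93.1 CPM on day 14. The highest day 14 library of *HSPE1* was close to the lowest of day 8, and the log2 difference was -0.74 (SE 0.23, adjusted p = 0.0317). This call did not hold without replicate 3 or 4 of day 8 or any day 14 library (0.0573 to 0.104).

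The name PHB2 belongs to a pair of identifiers. The first (ENSDARG00000017728) was at 70.2, 76.9, 93.1 and 89.7 CPM on day 8 and at 39.03, 35.3 and 37.4 CPM on day 14, with a log2 difference of -1.15 (SE 0.15, edgeR adjusted p = 3.86e-04). The other (ENSDARG00000045297) was at 205, 254, 380.4 and 309.7 CPM on day 8 and at 174, 179 and 218 CPM on day 14. Its groups overlapped through replicate 1 of day 8, and its log2 difference of -0.60 (SE 0.21) had an adjusted p of 0.0514, or 0.0103 with the replicate block. *PHB1* was at 265, 322, 422 and 380.4 CPM on day 8 and at 209.9, 238 and 242 CPM on day 14. It differed by -0.60 (SE 0.18, adjusted p = 0.0303), and the call was lost without replicate 2 or 4 of day 8 or any day 14 library (0.0543 to 0.104).

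Of the 21 assembly factors 7 were called lower (33.3%, against 13.3% of all genes). These were 3 of 8 for complex I (ndufaf), 2 of 4 for complex II (sdhaf) and 2 of 8 with names of the cox group. *NDUFAF4* was at 11.8, 14.8, 21.6 and 18.1 CPM on day 8 and at 7.05, 5.24 and 5.96 CPM on day 14. This was the second largest difference of the members called lower, with a log2 difference of -1.44 (SE 0.22, edgeR adjusted p = 8.49e-04). *COX10*, which makes heme O for cytochrome c oxidase, was at 38.01, 36.2, 28.3 and 27.1 CPM on day 8 and at 17.3, 17.1 and 12.1 CPM on day 14. *COX15*, which turns heme O into heme A, was at 4.17, 3.47, 3.70 and 3.67 CPM on day 8 and at 1.83, 2.39 and 1.70 CPM on day 14. Both enzymes of heme A synthesis were without overlap, with log2 differences of -1.06 (SE 0.19, adjusted p = 0.00194) and -0.93 (SE 0.24, adjusted p = 0.0154). The *COX15* call was lost without replicate 1 (0.0587) or 4 (0.0707) of day 14.

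*SDHAF4*, which helps to assemble the flavoprotein of complex II, was at 8.27, 7.79, 12.8 and 10.3 CPM on day 8 and at 4.44, 6.93 and 5.53 CPM on day 14. It was lower by a log2 difference of -0.81 (SE 0.23, edgeR adjusted p = 0.0237). The call was lost without replicate 4 of day 8 (-0.78, adjusted p = 0.0534) and without replicate 1 (-0.65, 0.0967) or 4 (-0.79, 0.0831) of day 14. *SDHAF2*, the flavin-attachment factor (-0.66, adjusted p = 0.0240), *NDUFAF6* (-0.61, 0.0336) and *NDUFAF7* (-0.52, 0.0427) were called in 11, 8 and 8 of the 14 alternative fits. The copper chaperones *cox17* (-0.61, adjusted p = 0.0978) and *COX11* (-0.53, adjusted p = 0.140) were not called. Both passed without scaling factors (edgeR adjusted p = 0.0268 and 0.0480) and without replicate 1 of day 8 (0.0369 and 0.00856). *NDUFAF2* had a positive difference of 0.47 that passed only in the fit with the replicate block (0.68, SE 0.21, adjusted p = 0.0174) and was at 2.78 to 9.04 CPM over all libraries.

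Of the 12 coenzyme Q genes 2 were called lower (16.7%) and 0 higher, against 13.3% and 12.0% of all genes. The share called lower was thus near that of all genes. *COQ2*, which joins the side chain to the ring, was at 17, 20.2, 24.3 and 24.6 CPM on day 8 and at 9.83, 11.5 and 14.8 CPM on day 14. *COQ5*, a methyltransferase of the ring, was at 54.4, 65.7, 95.1 and 81.7 CPM on day 8 and at 42.2, 47.6 and 48.7 CPM on day 14. They were the 2 called of 12, with log2 differences of -0.84 (SE 0.20, edgeR adjusted p = 0.00783) and -0.69 (SE 0.19, adjusted p = 0.0197), and *COQ5* was not called without replicate 1 (0.0692), 2 (0.0659) or 4 (0.0575) of day 14. The hydroxylase genes *COQ6* (0.07) and *COQ7* (0.01), the lipid-binding *COQ9* (0.03) and *COQ10B* (-0.09) had differences within 0.1 of 0, each with an SE between 0.16 and 0.18. *COQ3*, another methyltransferase, was at 22.4, 22.4, 31.7 and 36.9 CPM on day 8 and at 28.3, 38.7 and 48.5 CPM on day 14. It was higher in 3 of 3 replicate pairs, and the log2 difference was 0.44 (SE 0.22, adjusted p = 0.173) without and 0.51 (SE 0.13, adjusted p = 0.00730) with the block. *COQ4* (-0.41) was not called (adjusted p = 0.136), but passed with the block (0.0374), without scaling factors (0.0474) and without replicate 2 of day 14 (0.0398).

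Among the genes of cristae and fusion, *IMMT*, the organizing subunit of the crista junction, was at 231, 242, 231 and 202 CPM on day 8 and at 139.7, 117 and 114 CPM on day 14. *OPA1*, the GTPase of inner membrane fusion, was at 108, 98.3, 72.5 and 71.3 CPM on day 8 and at 56.0, 54.2 and 46.1 CPM on day 14. *OPA1* had replicate 1 as its highest day 8 library, unlike most members. Both were without overlap, with log2 differences of -0.88 (SE 0.15, edgeR adjusted p = 0.00149) and -0.75 (SE 0.18, adjusted p = 0.00999), and *OPA1* missed the threshold without replicate 4 of day 14 (0.0619). The GTPases of outer membrane fusion overlapped between days and were not called. *mfn1b* was at 43.3 to 51.4 CPM on day 8 and 38.4 to 54.4 CPM on day 14 (-0.03, SE 0.16), and *MFN2* at 27.3 to 36.5 and 34.0 to 36.7 CPM (0.09, SE 0.15). The signs of both changed between fits, that of *MFN2* without scaling factors, where the median of all genes was -0.17. The crista subunit *micos10* (-0.67, adjusted p = 0.0950) was called lower with the replicate block (-0.36, SE 0.14, adjusted p = 0.0489).

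*TWNK*, the helicase of mitochondrial DNA replication, was at 7.65, 10.7, 9.02 and 7.29 CPM on day 8 and at 4.56, 3.96 and 3.78 CPM on day 14. The days were apart by a log2 difference of -1.08 (SE 0.21, edgeR adjusted p = 0.00275). *TFAM*, which packages that DNA, was at 48.0, 51.98, 67.8 and 51.7 CPM on day 8 and at 44.0, 47.2 and 38.5 CPM on day 14. Its libraries were also without overlap, but by a small margin, and the difference of -0.35 (SE 0.16) had an adjusted p of 0.140. *TFAM* was called lower without scaling factors (-0.51, edgeR adjusted p = 0.0268), a fit in which the median of all genes was -0.17. *POLRMT*, the mitochondrial RNA polymerase, differed by -0.15 (SE 0.20), and its days overlapped. The cytosolic co-chaperone gene *tomm34* was at 104, 99.4, 115 and 94.7 CPM on day 8 and at 56.5, 50.5 and 39.7 CPM on day 14 (-1.08, SE 0.16, adjusted p = 7.04e-04).

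**Figure D4:**
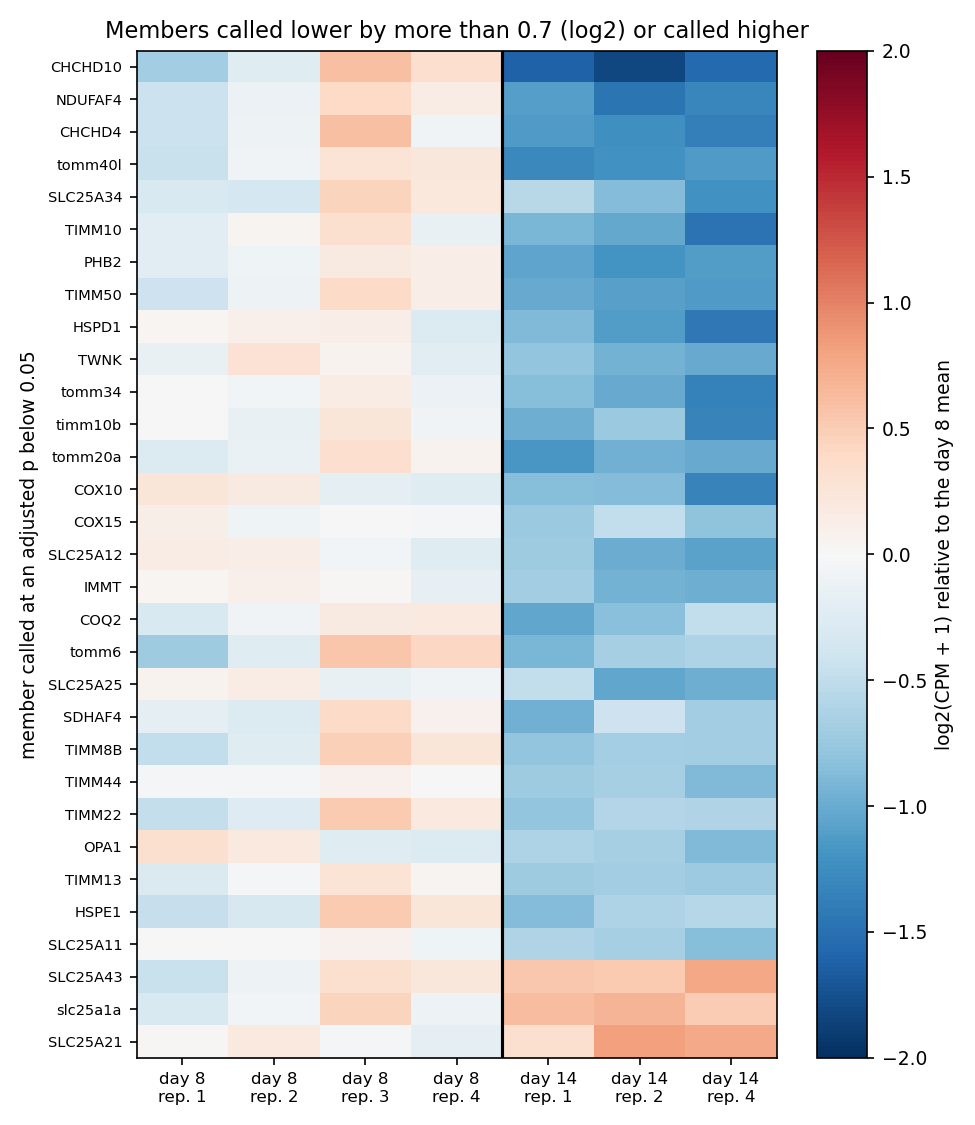
The 28 members called lower by more than 0.7 on the log2 scale and the 3 called higher (rows, in order of their log2 difference) in the 7 libraries (columns), coloured by log2(CPM + 1) relative to the day 8 mean of the gene, blue for lower and red for higher. In *tomm6*, *TIMM8B* and *HSPE1* replicate 1 of day 8 is already pale to mid blue, whereas in *HSPD1*, *COX10*, *OPA1* and *IMMT* that library is not below the day 8 mean. The last 3 rows are the carriers called higher.

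Carriers of the SLC25 family gave 9 lower (20.5%) and 3 higher (6.82%) calls among 44 genes, against 13.3% and 12.0% of all genes. SLC25A5 (ENSDARG00000092553) is a translocase that exchanges ADP for ATP across the inner membrane. *SLC25A5* was at 3220, 4006, 5553 and 4912 CPM in replicates 1 to 4 of day 8 and at 5495, 6773 and 7113 CPM in replicates 1, 2 and 4 of day 14. Replicate 1 of day 14 lay below replicate 3 of day 8, and the other day 14 libraries were above every day 8 library. The means were 4423 ± 1022 CPM (SD, n = 4) and 6461 ± 853 CPM (SD, n = 3), and the log2 difference of 0.55 (SE 0.24) did not pass the edgeR test (adjusted p = 0.114). It was higher in 3 of 3 replicate pairs, by 0.77, 0.76 and 0.53 on the log2 scale, and with the replicate block it was called, with a log2 difference of 0.69 (SE 0.14, adjusted p = 0.00136). It also passed with DESeq2 (0.54, adjusted p = 0.0291) and, in edgeR, without replicate 3 of day 8 (0.68, adjusted p = 0.0368). The block's difference between days does not use that library either. Across the alternatives the adjusted p ranged from 0.00136 to 0.281.

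As a share of the estimated counts of the members, which is not corrected for transcript length, *SLC25A5* took 34.9%, 37.4%, 40.3% and 40.3% in replicates 1 to 4 of day 8 and 52.01%, 55.9% and 58.0% in replicates 1, 2 and 4 of day 14. The days did not overlap on this measure, in which a fall of other members raises the share too. Of all counts of a library, the other 125 members took 0.690% to 0.769% on day 8 and 0.473% to 0.506% on day 14, and *SLC25A5* took 0.370% to 0.519% and 0.549% to 0.655%. The 126 members together took 1.06% to 1.29% on day 8 and 1.05% to 1.13% on day 14, ranges that overlap. No identifier of the matrix had the name of the related translocase genes *SLC25A4* or *SLC25A6* in the name table, so that these could not be compared.

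Of the 17 carriers of nucleotides, phosphate and cofactors 4 were called lower (23.5%) and 0 higher, against 13.3% and 12.0% of all genes. A calcium-dependent carrier of ATP-Mg and phosphate, *SLC25A25* (ENSDARG00000035468), was at 41.6, 43.8, 35.4 and 37.4 CPM on day 8 and at 27.8, 18.7 and 19.6 CPM on day 14 (-0.84, SE 0.18, edgeR adjusted p = 0.00448). *SLC25A16*, linked to the supply of coenzyme A, was at 12.4, 13.0, 11.6 and 15.5 CPM on day 8 and at 7.64, 8.51 and 8.30 CPM on day 14 (-0.69, SE 0.17, adjusted p = 0.0112). The pyrimidine nucleotide carrier *SLC25A33* differed by -0.62 (SE 0.21, adjusted p = 0.0451), a call lost without replicates 2, 3 or 4 of day 8 or any day 14 library (0.0667 to 0.142). *SLC25A3*, the phosphate carrier, was at 451, 560.5, 711 and 565 CPM on day 8 and at 482, 488 and 431 CPM on day 14. The difference of -0.29 (SE 0.18, adjusted p = 0.270) was not called, but it passed without scaling factors (-0.45, edgeR adjusted p = 0.0495).

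Among the 27 carriers of other substrates 5 were called lower (18.5%) and 3 higher (11.1%), against 13.3% and 12.0% of all genes. Higher calls were thus about as frequent as among all genes. *SLC25A12*, the calcium-regulated aspartate/glutamate carrier of the malate-aspartate shuttle, was at 177, 176, 155 and 136 CPM on day 8 and at 97.8, 80.3 and 75.9 CPM on day 14. *SLC25A11*, the oxoglutarate carrier of the same shuttle, was at 138, 140.2, 147 and 132 CPM on day 8 and at 91.1, 87.6 and 76.6 CPM on day 14. Both carriers of the shuttle separated the days, with log2 differences of -0.93 (SE 0.16, edgeR adjusted p = 0.00166) and -0.71 (SE 0.14, adjusted p = 0.00325). *SLC25A34*, whose substrate is not well established, was at 3.17, 3.03, 5.98 and 4.95 CPM on day 8 and at 2.49, 1.81 and 1.22 CPM on day 14. It differed by -1.20 (SE 0.33, adjusted p = 0.0188) but not past the threshold without replicate 2 (0.0673) or 4 (0.0884) of day 14. *SLC25A26*, the carrier of S-adenosylmethionine, differed by -0.67 (SE 0.18, adjusted p = 0.0187), and this call was lost without replicate 1 (0.0540) or 4 (0.0983) of day 14.

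The 3 carriers called higher on day 14 were *SLC25A21*, *slc25a1a* and *SLC25A43*. *SLC25A21*, an oxodicarboxylate carrier of lysine breakdown, was at 14.1, 16.03, 13.5 and 12.2 CPM on day 8 and at 17.5, 25.4 and 24.1 CPM on day 14 (0.68, SE 0.18, edgeR adjusted p = 0.0143). *slc25a1a*, a citrate carrier, was at 11.1, 13.4, 19.5 and 13.0 CPM on day 8 and at 21.9, 23.1 and 20.2 CPM on day 14 (0.61, SE 0.19, adjusted p = 0.0350). *SLC25A43*, of unsettled substrate, was at 19.2, 24.9, 33.6 and 31.4 CPM on day 8 and at 39.03, 38.6 and 46.2 CPM on day 14 (0.59, SE 0.19, adjusted p = 0.0380). All 3 were without overlap and higher in 3 of 3 replicate pairs, but they were chosen with these same libraries, so this adds no support to the calls. Their calls were not made without scaling factors (adjusted p = 0.0754, 0.0758 and 0.0863). *SLC25A21* was also not called without replicate 2 (0.0791) or 4 (0.0680) of day 14, *slc25a1a* without replicate 1, 2 or 4 of day 8 or any day 14 library (0.0601 to 0.116) and *SLC25A43* without replicate 1 or 2 of day 8 or any day 14 library (0.0557 to 0.141). The other citrate carrier gene *SLC25A1*, at 4.29 to 6.32 CPM on day 8 and 6.53 to 10.5 CPM on day 14, had a similar difference of 0.60 (SE 0.22). It did not pass (adjusted p = 0.0633), except without replicate 2 of day 14 (0.76, edgeR adjusted p = 0.0449).

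Carriers of iron and glutathione, which feed heme and iron-sulfur synthesis, had negative differences in 4 of 4 genes. In edgeR 0 of the 4 were called, against 25.3% of all genes in either direction, with 2 at an unadjusted p below 0.05. One of these, *slc25a40* (-0.54, edgeR adjusted p = 0.0604), passed with DESeq2 (0.0401), with the replicate block (0.0373), without scaling factors (0.0167) and without replicate 1 of day 8 (0.0190). *SLC25A38*, a glycine carrier needed for the first step of heme synthesis, was called lower and was at 31.98, 33.1, 31.6 and 26.7 CPM on day 8 and at 23.5, 22.9 and 20.0 CPM on day 14. Its log2 difference was -0.48 (SE 0.15, edgeR adjusted p = 0.0337), and it was not called without replicate 2 of day 8 or any day 14 library (0.0619 to 0.140). The mitoferrin genes *SLC25A37* (-0.71, SE 0.31, adjusted p = 0.111, but 0.0472 without scaling factors or replicate 1 of day 8) and *SLC25A28* (-0.20, SE 0.15, adjusted p = 0.358) were not called. The carnitine carrier *SLC25A20* (-0.30, SE 0.17, adjusted p = 0.226) was not called either, but passed without scaling factors (-0.46, edgeR adjusted p = 0.0437).

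Zebrafish carry more than one copy of many of these genes, and 14 pairs of related copies were measured. For each pair the ratio of the copies was taken within a library, with the copy of the lower fitted difference as the numerator, so that the direction is set by that choice. The *tomm20a* to *TOMM20* ratio (log2) was 0.44, 0.18, 0.08 and -0.02 on day 8 and -0.67, -0.77 and -1.05 on day 14. *tomm40l* against *TOMM40* was at -0.04, 0.04, 0.33 and 0.45 on day 8 and at -0.60, -0.40 and -0.18 on day 14. In both pairs the balance of the copies differed between days in every library. An exact two-sided permutation test over the 35 assignments of libraries gave p = 0.0286 for each, the smallest p that this design allows.

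The same smallest p was reached by *slc25a47b* against *SLC25A47* (a shift of -1.10) and by *timm23a* against *timm23b* (-1.63), where *timm23b* was at 0.23 to 0.47 CPM on day 8 and 0.51 to 1.22 CPM on day 14. The pairs of *PHB2* (-0.57) and *SLC25A32* (-1.16) were also without overlap, with an exact permutation p = 0.0571 each, and adjusted over the 14 pairs the lowest value was 0.10. Pseudo-alignment divides reads between copies of similar sequence, so that the values of single copies are less certain than their sums. For the summed counts of *tomm20a* and *TOMM20* the log2 difference was -0.51 (edgeR adjusted p = 0.0855), and for those of the *PHB2* pair it was -0.70 (adjusted p = 0.0225).

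**Figure D5:**
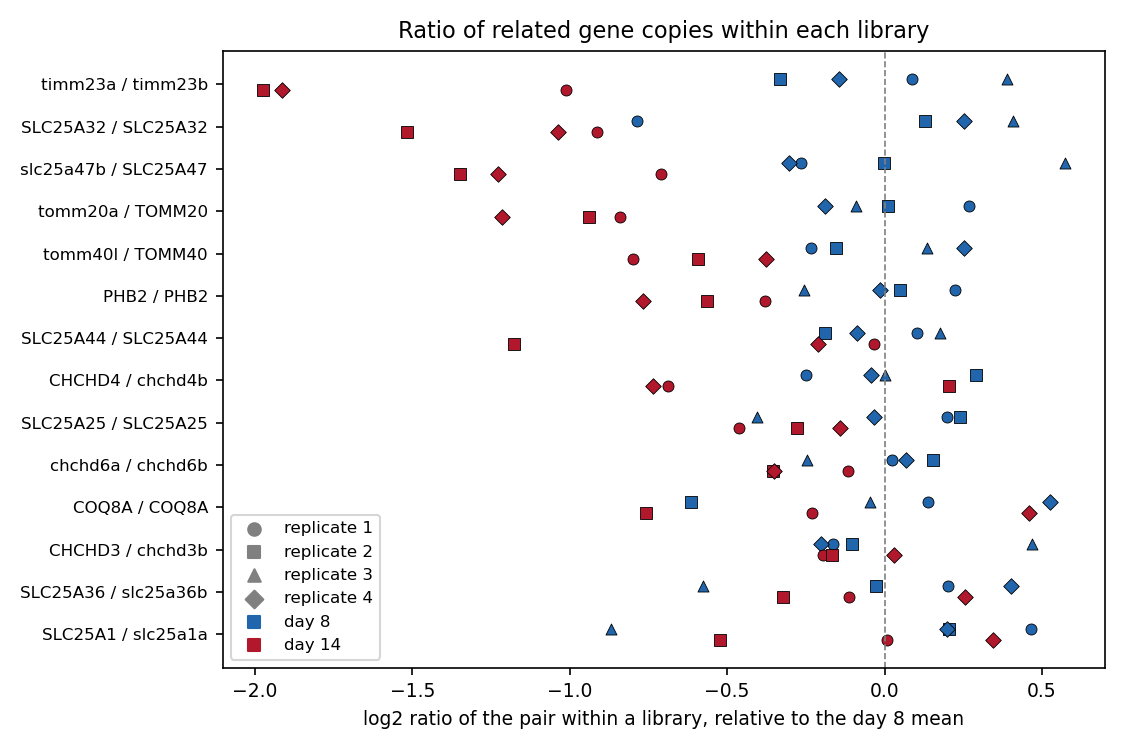
Log2 ratio of 14 pairs of related gene copies within each library (horizontal axis), relative to the mean of the 4 day 8 libraries, with colours for the day and shapes for the replicate. The *timm23*, *slc25a47*, *tomm20* and *tomm40* pairs have every day 14 library to the left of every day 8 library, as have *PHB2* and *SLC25A32*, and the other 8 pairs overlap.

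Further genes of the same pathways that the name rule leaves out were examined with a list of 107 names, which matched 114 identifiers. Of these 32 were called lower (28.1%) and 4 higher (3.51%), against 13.3% and 12.0% of all genes. The median log2 difference of the 114 was -0.32. The single name *HTRA2* covers 13 of the 114, of which 0 were called in edgeR, with 1 at an unadjusted p below 0.05 and 3 called higher with the replicate block, and the median of the other 101 was -0.35. *SAMM50*, which inserts barrel proteins into the outer membrane, fell from 133 to 163 CPM on day 8 to 69.2 to 83.8 CPM on day 14 (-0.95, edgeR adjusted p = 9.98e-04). *HSPA9*, the motor chaperone of import, was at 262 to 286 CPM on day 8 and 154 to 167 CPM on day 14 (-0.78, adjusted p = 0.00198). Its partner *PAM16* (-0.94), the presequence-cleaving subunit *PMPCA* (-0.69) and the calcium channel *MCU* (-1.21) were called lower as well. *PDSS1* (-1.11) and *PDSS2* (-0.92), which make the side chain that COQ2 attaches, were called lower too. *UCP2*, a carrier of the same protein family under another name, rose from 36 to 57.5 CPM on day 8 to 93.2 to 109 CPM on day 14 (1.12, adjusted p = 7.22e-04). The scaffold gene of iron-sulfur synthesis *ISCU* (ENSDARG00000035596, 0.72) and *MTX3* (0.76) were also called higher, whereas a second *ISCU* identifier (ENSDARG00000026582), at 50.6 to 80.2 CPM over all libraries, differed by 0.19 (adjusted p = 0.466). With single libraries left out, the former *ISCU* identifier was called in 3 of 7 fits (adjusted p up to 0.168), and the other genes called and named from this list were called in 7 of 7.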

How the data were processed

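The estimated counts that the authors deposited came from Kallisto pseudo-alignment to the Ensembl zebrafish transcriptome, were summed per gene and had genes of very low expression taken out. The authors title this matrix as normalized and state a normalization by transcript length and effective library size, but the library totals are unequal and 48.0% to 52.3% of the values in each library are exact whole numbers, so the values were taken as estimated counts before any such scaling. If they had been scaled, every CPM, share and test here would be affected. Here they were rounded and tested with edgeR 4.0.16 in R 4.3.3 (TMM factors, estimateDisp, robust glmQLFit and glmQLFTest, with growth phase as the single factor) over 17570 genes, and p-values were Benjamini-Hochberg adjusted over all of them. TMM factors were 0.883 to 1.15, and CPM used the scaled totals. The SE is the log2 difference divided by the square root of F. Depth was 11252559 to 33414743 counts per library, and no pair of libraries agreed within sampling noise (lowest chi-square per degree of freedom 14.1). Gene symbols came from a name table that named 15073 genes (85.8%). The members and lists were chosen with earlier results of these data known.

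Named members were *CHCHD10* and *SLC25A5*, up to 4 called members with the largest difference in each group and direction, every member called higher, and fixed paralogs, chaperonin, prohibitin, fusion and mitochondrial DNA genes. Others singled out were chosen after their values were seen, and some genes that meet the rule are not reported here. The replicate numbers pair the samples, since the study gives each number its own passage and starting day. Deviations from the day means correlated across genes by 0.356, -0.169 and 0.410 in replicates 1, 2 and 4. Across the members they correlated by 0.435, 0.109 and 0.612. Between libraries of unlike replicate number the correlations ranged from -0.367 to 0.387 across genes and from -0.596 to 0.421 across the members. The highest of these were between replicate 2 of day 8 and replicate 1 of day 14, so that the correlations did not favour the shared number for replicate 2. Alternatives were no scaling, median of ratios, no robust estimation, the newer quasi-likelihood form (added after seeing the data), a replicate block, a filter at 1 CPM, DESeq2 1.42.0, summed copies and omission of each library. The fit with summed copies joined all members whose names agree but for a final a or b. It thereby also joined distinct genes, such as *COQ10A* with *COQ10B*, *TIMM8A* with *TIMM8B*, *TIMM17A* with *TIMM17B* and *TIMM10* with *timm10b*. The procedure was tested on simulated data. Transcript lengths and sequences were not used here, so levels are not compared between genes.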

Additional observations from a re-analysis of the deposited data

How the results depend on the processing

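No member that was called turned to the opposite call in any fit. Lower calls numbered 42, with 70 when library sizes were not scaled (18.5% of all genes) and 24 to 63 when single libraries were left out (7.75% to 14.5% of all genes). Unscaled sizes moved the median of all genes to -0.17, and relative to it the members' median was -0.45, against -0.46 with scaling. Higher calls numbered 3, against 12.0% of all genes. They numbered 0 without scaling (6.93% of all genes, with 4 members at an unadjusted p below 0.05 in edgeR), 8 with the replicate block (17.7%) and 5 with DESeq2 (13.3%). With single libraries left out they numbered 0 to 4 (7.30% to 13.2% of all genes), where the 0 without replicate 4 of day 14 had 4 at an unadjusted p below 0.05 in edgeR. The block, which uses the pairing of replicate numbers, added 16 lower and 5 higher calls and lost 0 of 45. Its difference between days rests on the 3 pairs, since replicate 3 has no day 14 library. *SLC25A5* differed by 0.69 with the block, 0.54 with DESeq2 and 0.42 to 0.68 with single libraries left out. Without scaling, where all genes had a median of -0.17, the median was -0.38 for nucleotide, phosphate and cofactor carriers and -0.41 for the other carriers. With scaling these medians were -0.19 and -0.23. That of cristae and fusion genes was -0.62 without scaling, -0.30 with the block and -0.55 to -0.32 with single libraries left out. *MFN2* went from 0.09 to -0.10 without scaling, in the fit with that shift of all genes, and *mfn1b* ranged from -0.14 to 0.11 with single libraries left out. For 41 named genes, *CHCHD10* and *SLC25A5* not counted, 532 values under alternatives kept their direction and side of the threshold, 61 no longer passed, 10 newly passed and 3 reversed. Counts limit the genes near 1 CPM most, such as *timm23b*. Beyond the shift of all genes without scaling, the cause of these changes was not tested.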
